A study of Setaria viridis with 24 samples.

Results

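Crown and stem of watered Setaria viridis plants were compared at 6 days after sowing, over the 18620 genes that the authors' deposited table of this pair lists. All 28 tables of the series together list 20865 genes. Setaria viridis, green foxtail, is a small grass with C4 photosynthesis that serves as a model for cereals. The crown group held 3 RNA-seq libraries from the lower part of the shoot of watered plants at day 6. The stem group held 3 libraries from the upper part of the shoot of watered plants at the same day. Each library came from a pool of 20 plants grown in sand and peat, and each group had 1 library from each of 3 biological repeats. The line of Setaria used, and whether crown and stem were cut from the same plants, were not stated in the sources used. The 6 other groups are the drought-treated crown and stem at day 6 and the watered and drought-treated crown and stem at day 9, which are used below only where they hold no library of the pair.

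The crown of a grass is the compact base of the shoot, where several nodes lie close together near the soil surface. Shoot-borne roots, also called crown roots, start inside these nodes and make up most of the root system of an older grass plant. The region above the crown in a young grass consists largely of growing leaf and stem tissue. The region labels could not be checked against marker genes, because the files do not pair the gene identifiers with names or descriptions, and the RefSeq table of 34587 genes matched 0 of the 18620. Genes are therefore given by identifier and position in the files' own gene models (suffix v1.1, genome build not given in the sources used here), with no statement on function.

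Each group is represented by 1 FPKM value per gene, the fragments per kilobase of transcript, scaled to all mapped fragments, that the authors derived from the group's libraries. Values of single libraries were not analysed here, so no level below carries a standard deviation and the read depth behind it is unknown. Fold changes are crown over stem, so a positive value means a higher level in the crown. A gene is said to be called when its adjusted p in the authors' deposited table, q, was under 0.05. Because tissue pieces were measured, more cells of a type and more RNA per cell cannot be told apart.

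Crown and stem had similar spreads of expression over most genes. The median gene stood at 12.0 FPKM in the crown and 12.5 FPKM in the stem, with quartiles of 5.16 and 26.7 FPKM in the crown and 4.87 and 28.8 FPKM in the stem. The median log2 fold change over the 18551 genes above 0 FPKM in both groups was 0.02, with quartiles of -0.48 and 0.45. For 5844 genes, 31.4% of those listed, crown and stem lay within 1.2-fold of each other. Across genes, log2(FPKM + 1) in the crown and the stem had a Pearson correlation of 0.893, a description over genes, which are not independent replicates.

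Among listed genes, the stem had more at the top of the range and more near 0. Levels of 1000 FPKM or more were listed for 55 genes in the crown and 70 in the stem. Levels under 1 FPKM were listed for 206 genes in the crown and 490 in the stem, of which 7 in the crown and 62 in the stem were listed at exactly 0. Because all listed genes had at least 1.98 FPKM in the higher group, those under 1 FPKM were listed through the other group alone. Genes low in both groups are thus not in these counts. The 100 most abundant genes held 25.8% of the crown's summed FPKM and 27.5% of the stem's. The most abundant gene of both groups, chosen after its values were seen, was Sevir.7G168800 (chromosome 7, 23354262 to 23370720), which had 19244 FPKM in the crown and 38642 FPKM in the stem. With a log2 fold change of -1.01 it was not called (q = 0.345 in the authors' deposited table). The next 4 most abundant genes of the crown were also not called and were between 0.22 and 0.37 higher in the crown on the log2 scale.

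Of the 18620 genes, 3829 were called, or 20.6%. The crown was higher for 1546 of them, 8.30% of the genes listed, and lower for 2283, or 12.3%, so that 59.6% of the called genes were crown-lower. The median log2 fold change of called genes above 0 FPKM in both groups was 1.35 for the 1490 genes higher in the crown and -1.37 for the 2278 genes lower in the crown. The smallest called differences were 0.71 and 0.72 on the log2 scale, above and below 0. At the smallest p the authors' table holds, 5e-05, were 28.2% of the genes higher and 45.3% of the genes lower in the crown.

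**Figure D1:**
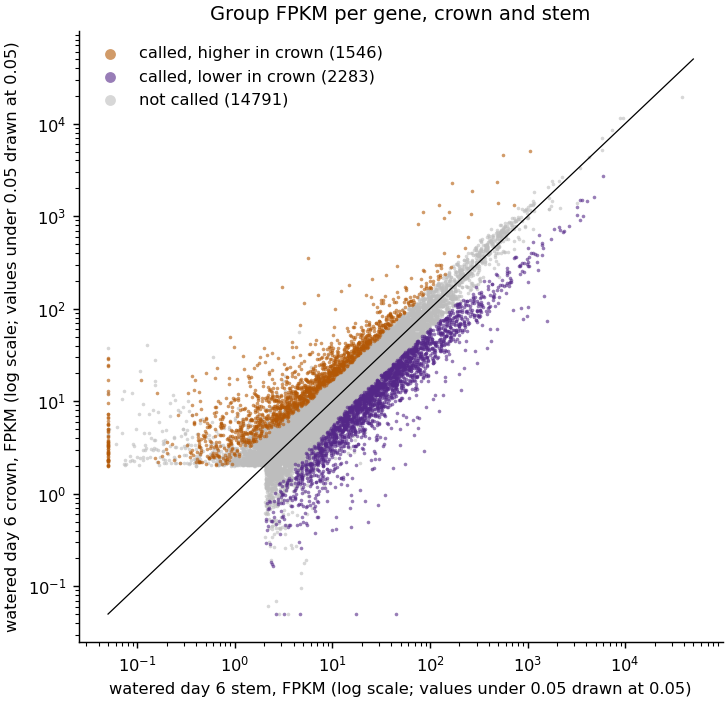
Each point is 1 of 18620 genes, with group FPKM in the watered day 6 crown on the vertical axis and in the watered day 6 stem on the horizontal axis, both logarithmic, and values under 0.05 FPKM drawn at 0.05. The 1546 genes called higher in the crown lie above the line of equal levels and the 2283 called lower lie below it. Grey points are genes not called, some of them far from the line.

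The direction of the difference followed the level of the gene. Genes were divided into quartiles by the mean of their crown and stem FPKM. Among the least abundant, up to 5.24 FPKM, 456 genes were called higher and 285 lower in the crown. In the second quartile the counts were 440 higher and 454 lower. The third, from 12.5 FPKM, had 351 higher and 585 lower. Among the most abundant, from 28.3 FPKM, 299 genes were called higher in the crown and 959 lower, so that 76.2% of the called genes there were lower in the crown, against 38.5% in the lowest quartile. The same order held without the authors' test. At least 2-fold apart were 960 higher and 587 lower genes in the lowest quartile and 163 higher and 744 lower in the highest. Level and direction rest on the same crown and stem values, so this count is not separate evidence. The median log2 fold change of all genes above 0 FPKM in both groups moved as well. From the lowest to the highest quartile it was 0.18, 0.05, -0.02 and -0.08. How far this shift goes with the counts was not tested. The authors' test reached less of the low genes: 47.3% of the genes at least 2-fold apart were called in the lowest quartile, 83.2% in the second, 94.8% in the third and 98.7% in the highest.

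**Figure D2:**
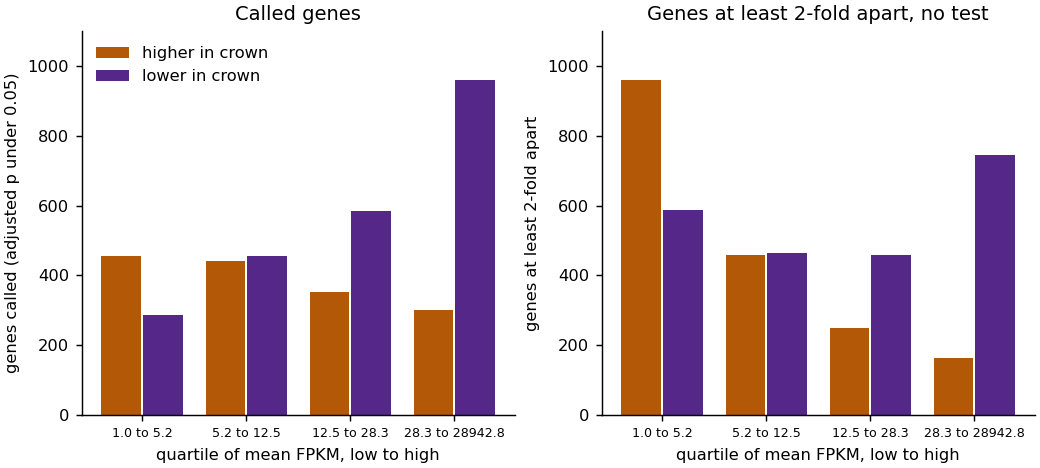
Bars count genes higher (orange) and lower (purple) in the crown in each quartile of mean FPKM, left for genes called by the authors and right for all genes at least 2-fold apart. Genes lower in the crown outnumber the others 959 to 299 among called genes of the highest quartile, and genes higher in the crown outnumber them 456 to 285 in the lowest.

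Genes lower in the crown held a large part of the stem's FPKM summed over listed genes. They were chosen for their higher stem values, so the direction of this difference was fixed in advance. The 2283 genes summed to 81556 FPKM in the crown and 229106 FPKM in the stem, which is 11.3% of the crown's total and 28.1% of the stem's total. The 1546 genes higher in the crown summed to 69045 FPKM in the crown and 22484 FPKM in the stem, or 9.56% and 2.76% of the totals of crown and stem. Among the 100 most abundant genes of the crown, 13 were called higher in the crown, 11 lower and 76 neither. Among the 100 most abundant genes of the stem, 1 was called higher in the crown, 50 lower and 49 neither. The lists are ranked by the same values, so each favours genes higher in its own group. The 2 lists had 58 genes in common.

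Most called differences were moderate. Of the genes called higher in the crown, 325 differed by under 2-fold, 819 by 2 to 4-fold, 222 by 4 to 8-fold, 94 by 8 to 16-fold and 30 by over 16-fold, and 56 were listed at 0 in the stem. Of the genes called lower in the crown, 441 differed by under 2-fold, 1523 by 2 to 4-fold, 226 by 4 to 8-fold, 71 by 8 to 16-fold and 17 by over 16-fold, and 5 were listed at 0 in the crown.

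The 2 largest log2 fold changes in favour of the crown belonged to Sevir.9G554700 and Sevir.8G220300. They were sought among called genes with more than 0 FPKM on both sides and at or above 14.7 FPKM, the median over listed genes, on the higher side. In the crown Sevir.9G554700 (chromosome 9, 54116602 to 54119120) had 17.0 FPKM, and in the stem 0.108 FPKM, with a log2 fold change of 7.30 and q = 0.0232 in the authors' deposited table. It was at 15.6 FPKM in the crown and 0.316 FPKM in the stem under drought at day 6, at 20.3 and 0.299 FPKM in crown and stem of watered plants at day 9, and at 43.7 and 0.471 FPKM in crown and stem under drought at day 9. Its stem level thus stayed under 1 FPKM in each of the 4 stem groups.

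Sevir.8G220300 (chromosome 8, 35716036 to 35717735) had 353 FPKM in the crown and 5.59 FPKM in the stem, with a log2 fold change of 5.98 and q = 0.00091 in the authors' deposited table. Unlike Sevir.9G554700 it had a stem level that varied widely between groups. Under drought at day 6 it was at 524 FPKM in the crown and 44.5 FPKM in the stem, at day 9 in watered plants at 437 and 104 FPKM in crown and stem, and at day 9 under drought at 595 and 381 FPKM in crown and stem. The crown remained the higher group in all 4 pairs, and in the last of them the gene was not called (q = 0.265 in the authors' deposited table).

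The largest log2 fold changes in favour of the stem under the same rule belonged to Sevir.1G257200 and Sevir.9G291500. Sevir.1G257200 (chromosome 1, 32128209 to 32131952) had 0.496 FPKM in the crown and 22.9 FPKM in the stem, with a log2 fold change of -5.53 and q = 0.00167 in the authors' deposited table. In the other stem groups it was at 13.4 FPKM under drought at day 6, 1.54 FPKM in watered plants at day 9 and 2.54 FPKM under drought at day 9, while its crown level lay between 0.319 and 1.07 FPKM in the other crown groups. Its high level was thus found in the 2 stem groups of day 6. Sevir.9G291500 (chromosome 9, 30801858 to 30803019) had 0.748 FPKM in the crown and 29.5 FPKM in the stem, with a log2 fold change of -5.30 and q = 0.00298 in the authors' deposited table.

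Ranked by the difference in FPKM instead, the genes that led in the crown were Sevir.6G140000 and Sevir.8G261800. Sevir.6G140000 (chromosome 6, 24097805 to 24098814) had 5122 FPKM in the crown and 1050 FPKM in the stem, with a log2 fold change of 2.29. Sevir.8G261800 (chromosome 8, 39795797 to 39796698) had 4622 FPKM in the crown and 565 FPKM in the stem, with a log2 fold change of 3.03. Both had q = 0.00091 in the authors' deposited table. Under drought at day 6 Sevir.6G140000, with 6439 FPKM in the crown and 2404 FPKM in the stem, was not called (q = 0.0681), and Sevir.8G261800, with 6174 FPKM in the crown and 1346 FPKM in the stem, was (q = 0.00091), by the authors' deposited table. At day 9 neither was called: in watered plants Sevir.6G140000 was at 6992 FPKM in the crown and 4211 FPKM in the stem, and under drought at 4814 and 7870 FPKM in crown and stem. Sevir.8G261800 was at 5116 FPKM in the crown and 2824 FPKM in the stem of watered plants at day 9, and at 3921 and 7081 FPKM in crown and stem under drought. For both genes the stem thus held the higher value under drought at day 9, without a call.

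On the side of the stem, the largest differences in FPKM were those of Sevir.6G242900 and Sevir.2G310200. Sevir.6G242900 (chromosome 6, 34235880 to 34236015), a gene model of 136 bp, stood at 2700 FPKM in the crown and 5994 FPKM in the stem, with a log2 fold change of -1.15, at q = 0.00091 in the authors' deposited table. Sevir.2G310200 (chromosome 2, 38142447 to 38143509) had 1610 FPKM in the crown and 4766 FPKM in the stem, with a log2 fold change of -1.57 and q = 0.0229 in the authors' deposited table. Both kept their difference in the other pairs, where log2 fold changes were between -1.34 and -1.02 for Sevir.6G242900 and between -1.63 and -1.56 for Sevir.2G310200, called in each of the 3.

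Genes listed at 0 in the stem formed a separate class. The 56 such genes that were called had between 2.0 and 29.5 FPKM in the crown, with a median of 3.38 FPKM, and 17 of them reached 5 FPKM. All listed genes had at least 1.98 FPKM in the higher group. Genes at 0 in the stem were thus listed through their crown value alone, and the lower end of the range is that of the listing. In the other stem groups, 41 of the 56 stayed under 1 FPKM throughout, 3 of these at 0 in every stem group, and 10 reached 2 FPKM or more in some stem group. In the crown, 41 of the 56 stood at 2 FPKM or more in all 4 groups. The same shares over all listed genes were not computed. The highest was Sevir.3G396700 (chromosome 3, 47285771 to 47287168), at 29.5 FPKM in the crown and listed at 0 in the stem. In the other crown groups it was between 24.3 and 65.4 FPKM, and in the other stem groups at most 0.063 FPKM. It was called in both day 9 pairs but not under drought at day 6 (q = 0.422 in the authors' deposited table). The second was Sevir.7G201700 (chromosome 7, 25622450 to 25623615), at 28.3 FPKM in the crown and listed at 0 in the stem, and at most at 0.361 FPKM in any stem group. Its crown level varied widely, with 5.06 FPKM under drought at day 6, 220.0 FPKM in watered plants at day 9 and 47.5 FPKM under drought at day 9. It was not called in either drought pair (q = 0.551 and 0.0747 at day 6 and day 9 in the authors' deposited tables).

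An exact 0 can also be a failed estimate, and for genes higher in the crown it was called more often than a value just above 0. Among crown-higher genes of 5 FPKM or more in the crown, 17 of the 19 listed at 0 in the stem were called, all at the smallest p. Of 49 such genes above 0 and up to 0.5 FPKM in the stem, 18 were called, or 36.7%, although their median log2 fold change was 5.12. Of 54 genes between 0.5 and 1 FPKM in the stem, 87.0% were called. On the side of the stem there were few such genes: both genes listed at 0 in the crown, and 7 of 9 genes above 0 and up to 0.5 FPKM in the crown (77.8%), were called. Of all listed genes over 16-fold apart, 28.8% of 104 higher in the crown and 73.9% of 23 lower in the crown were called. Some of the largest differences in the table were not called. Sevir.9G234700 (chromosome 9, 17899618 to 17900716), chosen after its values were seen, stood at 41.0 FPKM in the crown and 0.124 FPKM in the stem, with a log2 fold change of 8.36 and q = 0.525 in the authors' deposited table. Counts of called crown-higher genes at the far end of the size range include this unevenness.

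The 5 genes called with 0 FPKM in the crown were Sevir.3G308900, Sevir.5G343500, Sevir.4G169600, Sevir.5G250000 and Sevir.4G169700, of which the first 2 were named by level and the others because they are few. Sevir.3G308900 (chromosome 3, 30690788 to 30691020) was listed at 0 in the crown and had 44.4 FPKM in the stem, with q = 0.0114 in the authors' deposited table. Sevir.5G343500 (chromosome 5, 37424906 to 37425098) was listed at 0 in the crown and had 17.6 FPKM in the stem, with q = 0.00091 in the authors' deposited table. Their gene models span 233 and 193 bp. Neither was called in any of the other pairs that list it, and Sevir.3G308900 had 6.06 FPKM in the crown and 33.4 FPKM in the stem under drought at day 6. For Sevir.5G343500 the crown held the higher value at day 9, with 12.6 FPKM in the crown and 4.52 FPKM in the stem of watered plants and 2.87 FPKM in the crown and 0.904 FPKM in the stem under drought. The other 3 had between 2.62 and 4.64 FPKM in the stem.

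Called genes were spread over all 9 chromosomes. The share of listed genes called higher in the crown was between 7.09% on chromosome 4 and 10.9% on chromosome 8, beside 8.30% over all genes. The share called lower was between 11.7% on chromosome 3 and 13.5% on chromosome 6, beside 12.3% over all genes. Genes with short models were called more often in both directions. In the quartile of genes spanning 106 to 2309 bp, 11.1% were called higher and 15.7% lower in the crown, and in the quartile spanning 5562 bp or more, 6.47% and 8.68%. The median span was 3220 bp for genes higher in the crown, 3257 bp for genes lower in the crown and 3865 bp for genes not called. The span includes introns.

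Genes next to a called gene were somewhat more often called in the same direction than genes of the whole table were. Of 1529 genes called higher in the crown with a following listed gene at another position, 12.2% were followed by a gene that was also higher, where 8.30% of all genes were. Of 2228 genes called lower, 14.8% were followed by another lower one, where 12.3% of all genes were. Followers called the opposite way made up 9.81% after a higher gene, where 12.3% of all genes were lower, and 7.32% after a lower gene, where 8.30% were higher. Runs of 4 or 5 adjacent genes called in the same direction numbered 5 for the crown and 6 for the stem. Whether neighbours are copies of each other that share reads was not analysed here.

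The run named by rule for the crown lies on chromosome 7 between 7086125 and 7181091 and consists of Sevir.7G020100, Sevir.7G020200, Sevir.7G020300, Sevir.7G020400 and Sevir.7G020500. In the watered day 6 crown the 5 genes stood at 24.8, 12.0, 5.69, 13.0 and 16.9 FPKM in this order, and in the stem all 5 were listed at 0, each with q = 0.00091 in the authors' deposited table. In the other crown groups all 5 were above 4 FPKM, and in the other stem groups all 5 were under 1 FPKM. Their lowest crown value was 4.56 FPKM, for Sevir.7G020300 under drought at day 6, and their highest was 43.9 FPKM, for Sevir.7G020100 under drought at day 9. The highest value of any of them in a stem group was 0.708 FPKM, for Sevir.7G020200 under drought at day 9. Sevir.7G020300 was listed at 0 in all 4 stem groups and called in all 4 pairs, whereas each of the other 4 had at least 1 pair with a stem value just above 0 and no call.

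A run of equal length on chromosome 8, between 35580664 and 35717735, was chosen after its values were seen. It ends with Sevir.8G220300, and all 5 of its genes were called at q = 0.00091 in the authors' deposited table. Sevir.8G219500 stood at 32.1 FPKM in the crown and 11.2 FPKM in the stem. Sevir.8G219600 stood at 31.1 FPKM in the crown and 10.4 FPKM in the stem. The next 2 genes had wider differences, with 98.3 FPKM in the crown and 10.7 FPKM in the stem for Sevir.8G220000 and 115 FPKM in the crown and 5.05 FPKM in the stem for Sevir.8G220200. The log2 fold change thus became larger along the run, from 1.52 and 1.59 over 3.20 and 4.50 to 5.98. Past the run the next 3 listed genes had smaller values of 1.32, 2.30 and 2.71. The gene after these had 2.56 FPKM in the crown and was listed at 0 in the stem, which gives no finite fold change. After 1 uncalled gene, Sevir.8G220400, 3 more genes up to position 35810203 were called higher in the crown, so that 8 of the 9 listed genes of the segment were. The ends of the segment were set at called genes, so this count was partly fixed by the choice. Of all genes listed on chromosome 8, 10.9% were called higher in the crown. Among the 3 genes after Sevir.8G220400, Sevir.8G220700, also chosen after its values were seen, stood at 233 FPKM in the crown and 35.5 FPKM in the stem.

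In the other pairs the difference of this chromosome 8 run was smaller, and the stem values were higher. Under drought at day 9 only Sevir.8G220200 was called, with 266 FPKM in the crown and 128 FPKM in the stem (log2 fold change 1.05, q = 0.0176 in the authors' deposited table). Sevir.8G219500 was then at 63.4 FPKM in the crown and 67.6 FPKM in the stem, and Sevir.8G219600 at 32.5 and 36.7 FPKM in crown and stem. Whether the region difference itself differs between the pairs could not be tested from group values.

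The longest run of genes lower in the crown lies on chromosome 4 between 935408 and 1001740, from Sevir.4G013300 to Sevir.4G013800. Its 5 genes had log2 fold changes between -1.75 and -1.12, and q between 0.00091 and 0.0126 in the authors' deposited table. The most abundant of them, Sevir.4G013600, stood at 62.7 FPKM in the crown and 161 FPKM in the stem. A run of 4 genes on chromosome 9, chosen after its values were seen as the strongest stem run by median, had larger differences. Sevir.9G291400 (30784764 to 30786605) had 84.0 FPKM in the crown and 979 FPKM in the stem. Sevir.9G291600 (30818171 to 30819534) had 73.0 FPKM in the crown and 1589 FPKM in the stem, and Sevir.9G291700 (30824968 to 30826319) had 18.0 FPKM in the crown and 143 FPKM in the stem. With Sevir.9G291500 between them, the 4 genes had log2 fold changes between -5.30 and -2.99, and all 4 were also called lower in the crown in each of the other 3 pairs. Their stem levels were highest in the watered day 6 group and lowest under drought at day 9, where Sevir.9G291600 stood at 16.5 FPKM in the crown and 173 FPKM in the stem.

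**Figure D3:**
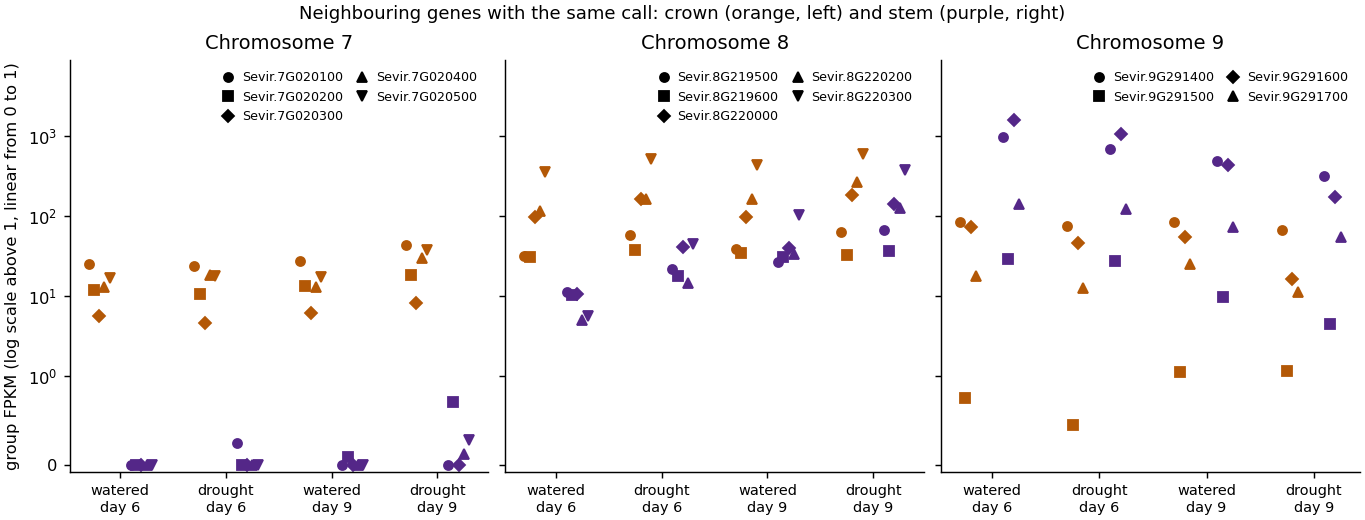
Points are group FPKM values of the genes of 3 runs, with crown (orange) left of stem (purple) in each of the 4 pairs of groups, on an axis that is logarithmic above 1 and linear from 0 to 1. The chromosome 7 genes stay under 1 FPKM in every stem group, 4 of the 5 chromosome 8 genes are not called under drought at day 9, where Sevir.8G220200 has 266 FPKM in the crown and 128 FPKM in the stem, and the chromosome 9 genes are higher in every stem group than in the crown.

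The same comparison of crown with stem was available in 3 other pairs with no library of the watered day 6 groups, although all groups come from the same 3 repeats. In these pairs, 6.44% and 10.7% of the genes listed were called higher and lower in the crown under drought at day 6, 12.0% and 6.88% in watered plants at day 9, and 11.6% and 6.64% under drought at day 9. At the same age nearly all called genes had the same sign with and without drought. Of the 1546 genes higher in the watered day 6 crown, 1488 were listed under drought at day 6 and 99.3% of these were higher in the crown there too, where 50.2% of all genes listed in both were. Of the 2283 lower genes, 2251 were listed and 99.8% were lower, where 49.8% of all genes were. Over genes above 0 FPKM throughout, the median log2 fold change of genes higher in the crown was 1.32 in watered plants and 1.07 under drought, and that of the lower genes -1.36 and -1.26. In the drought pair of day 6, 832 of the listed higher genes (55.9%) and 1698 of the listed lower genes (75.4%) were called the same way. Among genes under 2-fold higher in the watered crown, 23.4% were called under drought, with medians of 0.55 under drought and 0.89 in watered plants. Whether the size of the differences depends on drought was not tested. Selected under drought instead, the higher genes had medians of 1.49 there and 1.40 in watered plants, and the lower genes -1.36 in both.

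At day 9 fewer of the genes had the same sign. In watered plants at day 9, 72.4% of the genes higher and 85.0% of the genes lower in the day 6 crown had the same sign, where 51.1% of all genes were higher and 48.9% lower. Under drought at day 9 the shares were 61.9% and 81.9%, where 50.7% of all genes were higher and 49.3% lower. The median log2 fold change of the higher genes was 1.34 at day 6 and 0.64 in watered plants at day 9. Selected at day 9, genes higher in the crown had medians of 1.5 at day 9 and 0.75 at day 6, so that for genes higher in the crown either selection gave a smaller value at the other day. For genes lower in the crown the 2 selections were unlike. Selected at day 6 the medians were -1.35 at day 6 and -0.91 at day 9, and selected at day 9 they were -1.33 at day 9 and -1.35 at day 6.

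For genes higher in the crown, the share with the same sign at day 9 was larger where the day 6 difference was larger. Of the 325 genes under 2-fold higher in the day 6 crown, 47.4% were higher in the watered day 9 crown, with a median log2 fold change of -0.03 there, and 37.8% under drought at day 9. Of those 2 to 4-fold higher and listed there the shares were 71.6% and 61.0%. Of those 4 to 8-fold higher, 93.1% were higher in the watered day 9 crown and 80.5% in the drought day 9 crown, and of those 8 to 16-fold higher, 93.6% and 79.6%. The 30 genes over 16-fold higher were all higher in the watered day 9 crown, and 29 of them under drought at day 9. Among the 441 genes under 2-fold lower in the day 6 crown, 79.4% were lower in the watered day 9 crown and 75.9% under drought, beside the 47.4% and 37.8% of the small differences in favour of the crown. For genes lower in the crown and listed in watered plants at day 9, the share went less with size. It was 86.3% for 2 to 4-fold (1485 of 1523 listed) and 85.4% for 4 to 8-fold (199 of 226 listed). For 8 to 16-fold it was 93.1% (58 of 71 listed), and for over 16-fold 87.5% (7 of the 8 listed, out of 17). More of the genes with large differences were thus not listed at day 9, and they are not in these shares. No test of the contrast between the 2 directions is possible from group values.

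**Figure D4:**
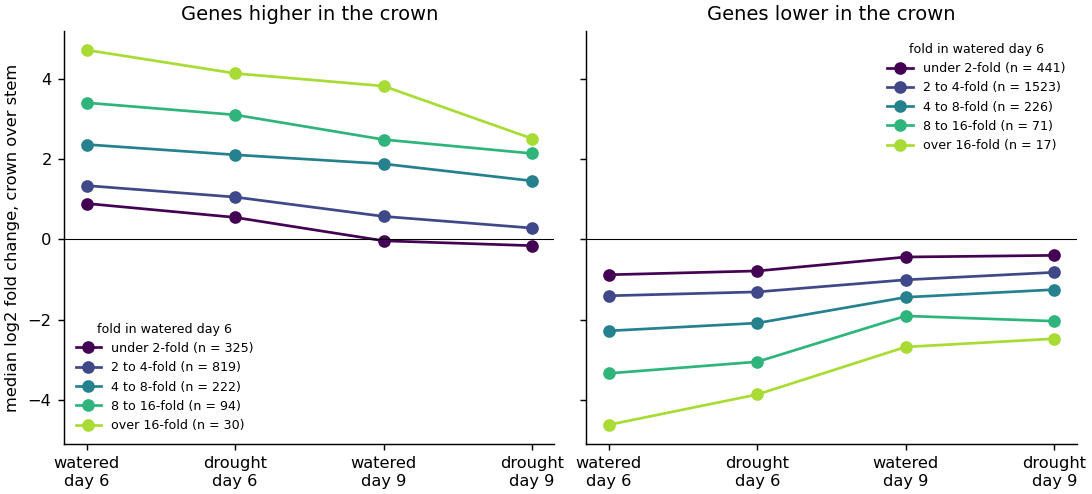
Points are median log2 fold changes, crown over stem, of genes called in watered plants at day 6 and sorted by their fold there. They are shown for the pair itself and for the 3 pairs without its libraries. The first point of a line holds all genes of the class above 0 FPKM in both groups. Later points hold only those also listed and above 0 FPKM in the other pair. For over 16-fold lower these were 8 of 17 in watered plants and 10 of 17 under drought at day 9. Each class keeps its order under drought at day 6, and all classes lie closer to 0 at day 9, with the class under 2-fold higher at -0.03 in watered plants and -0.16 under drought.

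Among the 1546 genes higher in the crown, 400 (25.9%) were called the same way in all of the other 3 pairs and 534 (34.5%) in none of them. Over all 18620 genes, 2.98% were called higher in all 3 of these pairs and 85.1% in none. Among the 2283 lower genes, 747 (32.7%) were called in all 3 and 511 (22.4%) in none, where 4.23% of all genes were called lower in all 3 and 86.5% in none. Genes called in no other pair had smaller differences and a q closer to the threshold. Their median fold was 2.04 for higher and 2.14 for lower genes, with a median q of 0.0191 and 0.0180, against 3.31 and 2.90-fold for genes called in all 3 others. The lower genes called in all 4 pairs were also the most abundant, with a median of 65.5 FPKM in the stem, against 14.8 FPKM for those called in none of the others. Genes higher in the crown did not show this. Their median in the crown was 12.2 FPKM for those called in all 3 others and 20.6 FPKM for those called in none. Called at day 6 with and without drought and in neither day 9 pair were 314 genes higher (20.3%) and 641 genes lower in the crown (28.1%). The share of all listed genes with this pattern was not computed, so these 2 shares cannot be read as particular to the called genes. Calls missing in a pair do not show that the difference was absent there.

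Opposite calls were rarer among these genes than calls in that direction among all genes listed in both pairs. In watered plants at day 9, 11 of the genes higher in the day 6 crown were called lower, or 0.715% beside 7.39% of all genes, and 35 of the lower genes were called higher, or 1.60% beside 10.2%. Under drought at day 9, 66 of the higher genes were called lower, or 4.29% beside 7.18%, which is the share closest to that of all genes, and 54 of the lower genes were called higher, or 2.50% beside 10.1%. In the drought pair of day 6 no gene was called the opposite way, where 11.0% and 6.35% of all genes were called lower and higher. Ranked by the smaller of the absolute log2 fold changes of the 2 days, and chosen after its values were seen, the leading gene with opposite calls in watered plants was Sevir.1G260500 (chromosome 1, 32481264 to 32482352). At day 6 it stood at 0.947 FPKM in the crown and 5.72 FPKM in the stem (log2 fold change -2.59, q = 0.0198), and at day 9 at 33.4 FPKM in the crown and 3.16 FPKM in the stem (log2 fold change 3.40, q = 0.00091), by the authors' deposited tables.

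Genes set apart by region at day 6 were also followed from day 6 to day 9 in drought-treated plants, in 2 tables that hold no library of the watered day 6 groups. Of the 18213 genes in the table of drought stems, 4.08% were called higher at day 9 and 7.30% lower, and of those also listed in the watered day 6 pair 4.03% and 7.48%. Of 1346 genes higher in the watered day 6 crown, 492 were called higher in the drought stem at day 9 than at day 6, or 36.6%, and 12 lower. Of 2252 genes lower in the watered day 6 crown, 2 were called higher in the drought stem at day 9 and 916 lower, or 40.7%. Their median log2 fold changes, day 9 over day 6, were 0.75 for the crown-higher and -0.77 for the crown-lower genes, beside -0.02 for all genes listed in both. Of the 14076 genes not called between crown and stem, 1.55% were called higher and 2.80% lower. Calls in drought stems thus ran toward the crown's pattern of day 6 in 1408 genes and away from it in 14. These genes were chosen by watered day 6 values of the same 3 repeats. How far that choice favours the direction seen in drought stems was not tested.

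In drought crowns fewer of these genes were called between the days. Of the 19492 genes listed for drought crowns, 7.97% were called higher at day 9 and 2.59% lower, and of those also listed in the watered day 6 pair 6.38% and 2.81%. Of 1536 genes higher in the watered day 6 crown, 295 were called higher at day 9, or 19.2%, and 47 lower, or 3.06%. Of 2079 genes lower in the watered day 6 crown, 116 were called higher at day 9, or 5.58%, and 272 lower, or 13.1%. The median log2 fold changes were 0.11 for the crown-higher genes and -0.31 for the crown-lower genes, beside 0.01 for all genes listed in both. Drought groups differ from the watered groups in treatment as well, and whether stem and crown differ in this respect was not tested.

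**Figure D5:**
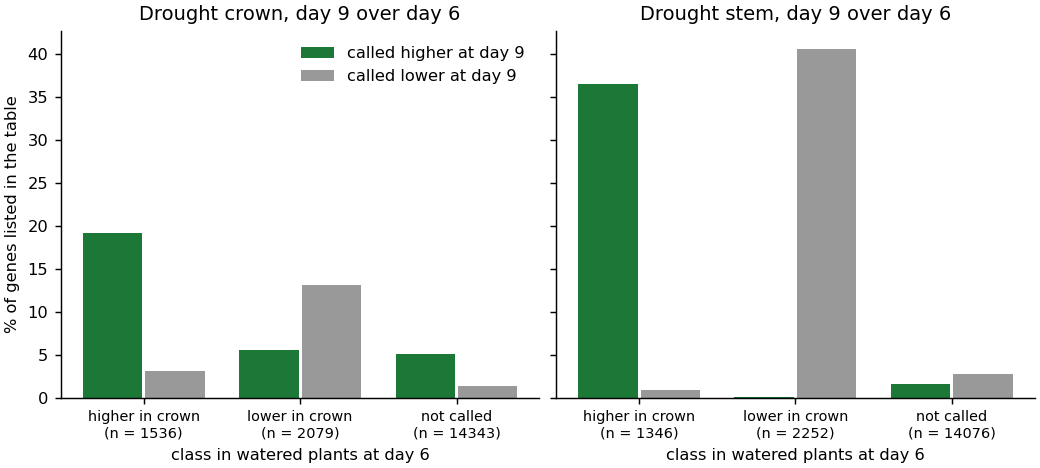
Bars give the share of genes called higher (green) or lower (grey) at day 9 than at day 6 in drought crowns (left) and drought stems (right), for genes that were higher, lower or not called in the watered day 6 crown against the stem. In drought stems 36.6% of the crown-higher genes were called higher at day 9 and 40.7% of the crown-lower genes lower, beside 1.55% and 2.80% of uncalled genes.

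Levels in all groups show the same course. The 1546 genes higher in the watered day 6 crown had median levels of 14.0 FPKM in the crown and 4.99 FPKM in the stem there, 13.9 and 5.92 FPKM in crown and stem under drought at day 6, 16.1 and 8.99 FPKM in watered plants at day 9, and 17.0 and 10.9 FPKM under drought at day 9. The stem level was at a median of 38.5%, 46.1%, 60.9% and 78.0% of the crown level in these 4 pairs. Of these values, those of the watered day 6 pair chose the genes, and the other groups were not used to choose them. The median crown level changed by less than the median stem level did. For the genes lower in the crown, the median stem level was 30.6 FPKM in the watered day 6 pair, 25.4 FPKM under drought at day 6, 18.3 FPKM in watered plants at day 9 and 14.9 FPKM under drought at day 9, while the median crown level lay between 9.16 and 12.1 FPKM.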

How the data were processed

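RNA of 24 libraries in 8 groups was sequenced, and the pair of watered day 6 crown and stem was used here with tables of other pairs. Per the labels' protocols, ribosomal RNA was depleted and libraries kept the strand. Tools named in the submitters' processing notes are FastQC, cutadapt and Cuffdiff, while aligner, counting strand and genome build were not stated in the sources used. Per the file headers, each table deposited by the authors gives 1 FPKM per group and gene, the log2 fold change, a p-value and a q-value. Deposited fold changes in the pair's table are stem over crown, and their sign was turned round. They equalled the log2 ratio of FPKM within 1.4e-05. A joint Benjamini-Hochberg adjustment of the 531416 rows of all 28 tables gave the deposited q-values within 5.3e-07, and called genes had p up to 0.00735. Group values were equal in every table they occur in (0 differences).

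No test was made on libraries. Genes with q under 0.05 were counted by direction with pandas 2.3.3, and genes at 0 FPKM in a group were left out of medians of fold changes. Listed genes had at least 1.98 FPKM in the higher group. Position entries were shared by 1282 listed genes, none of them named. By rule, the text names per direction the 2 largest fold changes, the 2 largest FPKM differences, the 2 highest genes listed at 0 in the other group and the longest run of neighbours, and any other gene is marked as picked with its values known. The members, the lists and these rules were chosen with earlier results of these data known. The adjustment and the search for runs were tested on simulated data. Alternatives were another threshold, adjustment within the table, a minimum fold, minimum levels, centring and a pseudocount of 1.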

Additional observations from a re-analysis of the deposited data

How the results depend on the processing

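No paired analysis was possible because the files hold 1 value per group, which also leaves no way to leave out a replicate. At q under 0.01, 2348 genes were called, 792 higher and 1556 lower in the crown, so that 66.3% were lower, where 59.6% were at 0.05. Adjusted within this table alone, 4267 genes were called (1770 higher, 2497 lower), among them all 3829 of the joint adjustment. With at least a 2-fold difference 3063 remained (1221 higher, 1842 lower), 3466 where the higher group had 5 FPKM or more (1308 higher, 2158 lower), and above 0 FPKM in both groups 3768. Over genes above 0 FPKM in both groups, centring on the median gene left 1719 genes at least 2-fold higher and 2293 lower, where 1768 and 2246 were without centring. The counts of genes at least 2-fold apart by quartile of level include genes listed at 0. Of the 32 genes with recomputed q, all passed within the table, and 5 missed 0.01: Sevir.9G554700, Sevir.2G310200, Sevir.3G308900, Sevir.4G013300 and Sevir.4G169600. With 1 added to each FPKM the median log2 fold changes were 1.17 and -1.23. With at least 5 FPKM in both pairs, the same-sign shares moved by under 5 percentage points. FPKM without counts leaves depth unknown.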
